A study of Mus musculus with 20 samples.

Results

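The comparison described here sets mouse RAW264.7 cells given RANKL together with I-BET for 14 hours against cells given RANKL alone for the same time. It holds 4 of the study's 20 libraries, chosen by their labelled treatment and hour: 2 of RANKL plus I-BET (called the combination below) and 2 of RANKL. RAW264.7 is an established mouse monocyte and macrophage line, although the source field of the labels reads "Bone marrow". RANKL was given at 50 ng per ml and I-BET at 500 nM, and no control vehicle is named. The remaining libraries are pairs of RANKL, I-BET or both at 4 and 24 hours, I-BET alone at 14 hours, and untreated cells at hour 0. Gene expression was measured by sequencing poly(A)-selected RNA, and levels are given as CPM, counts scaled to library size with TMM factors. The labels do not say whether the libraries of a group are separate cultures, and every p-value here rests on the spread among libraries, which may be technical.

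RANKL is the cytokine that turns cells of the monocyte and macrophage lineage into osteoclasts, the multinucleated cells that resorb bone. It binds the receptor RANK, acts through NF-kB, MAP kinases and calcium, and induces the transcription factor NFATc1, which drives genes of cell fusion, acid secretion and matrix digestion. I-BET compounds block the bromodomains of BET proteins, which bind acetylated histones and recruit the elongation factor P-TEFb to active genes. The comparison addresses what BET inhibition changes in cells that are on the way to osteoclasts.

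The combination libraries held 27032294 and 42999279 counts, and the RANKL libraries 49355128 and 51427141. Mitochondrial genes took 3.33% and 4.36% of the counts in the combination and 3.15% and 3.44% in RANKL. All 10 macrophage markers were measured, and they summed to 6170 and 7796 CPM in the combination against 4304 and 5621 CPM in RANKL. They moved both ways: Ptprc (log2 0.84), Lyz2 (0.85) and Adgre1 (0.75, listed under its older symbol Emr1) were higher, and Cd68 (-0.38), Itgam (-0.59) and Spi1 (-0.48) were lower. With the library number as a replicate block 6 were higher and 3 lower, while 1 was higher without combination library 2 or RANKL library 1, and 0 were lower without either combination library or RANKL library 2. Leaving out untreated library 2 left 1 lower. Of 34 markers of other cell types 18 were at 0 in all 4 libraries, and the list summed to 2.23 and 2.24 CPM in the combination against 2.13 and 1.59 CPM in RANKL. None of the 5 that could be tested was called, and with the block 1 was higher, the platelet factor Pf4 (adjusted p = 0.0362, against 0.136 without the block). The part of these markers in the results below was not tested.

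Adding I-BET to RANKL changed about as many genes upward as downward. Of 16042 genes tested, 1737 were higher (10.8%) and 1801 were lower (11.2%) in the combination than in RANKL, so 22.1% were called (edgeR quasi-likelihood test, Benjamini-Hochberg adjusted p under 0.05). At least 2-fold changes made up 608 of the higher and 695 of the lower calls. In each called gene both combination libraries lay on the same side of both RANKL libraries, and libraries stood apart in this way in 55.7% of all tested genes (26.3% higher, 29.4% lower). The median log2 fold change of all genes was -0.03. With the replicate block, 3153 genes were higher (19.7%) and 3301 lower (20.6%), or 40.2% in all. Leaving out combination library 2 left 1040 higher and 1114 lower calls, leaving out combination library 1 left 1108 lower, and leaving out RANKL library 2 left 1162 lower. In bulk RNA, fewer cells that express a gene and less of its RNA per cell cannot be told apart.

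**Figure D1:**
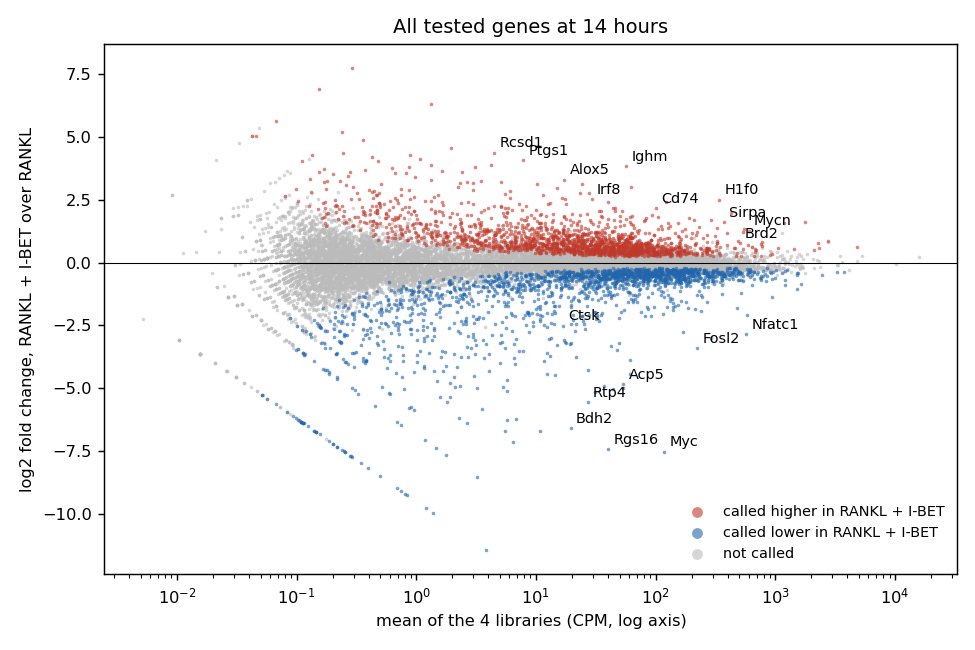
Log2 fold change (combination over RANKL at 14 hours) of every tested gene against its mean CPM in the 4 libraries on a log axis, with called genes in colour. Of 16042 genes, 1737 lie above and 1801 below the line as calls, and Myc lies at -7.52. Points on the straight lines at lower left have 0 or few counts in the combination, so their fitted values depend on the prior count.

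Myc was the gene with the largest fall among genes with a mean of at least 5 CPM over the 20 libraries. Myc (ENSMUSG00000022346, mm10 chromosome 15, 61985341 to 61990374) encodes a transcription factor that drives cell growth and needs MAX as its partner. It stood at 1.94 and 0.746 CPM in the combination libraries, against 236 and 233 CPM in the RANKL libraries. Both combination libraries were also below the untreated ones (17.6 and 8.32 CPM) and above those of I-BET alone (0.158 and 0.182 CPM). The level was 184-fold lower in the combination than in RANKL (log2 -7.52, SE 0.43, adjusted p = 1.55e-07).

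Its paralogs split. Mycn, the neuronal-type family member, stood at 754 and 937 CPM in the combination, against 264 and 439 CPM in RANKL (log2 1.27, SE 0.26, adjusted p = 0.003). Per length, Mycn had 231 and 275 RPKM in the combination while Myc had 0.722 and 0.265 RPKM there. In RANKL, Mycn had 78.7 and 124 RPKM and Myc had 85.0 and 79.7 RPKM. The order of these family members thus differed: Myc and Mycn levels overlapped in RANKL, and Mycn was far above Myc in the combination. Mycl, the third member, had 0.183 and 0.409 CPM in the combination and 3.04 and 4.70 CPM in RANKL (log2 -3.63, SE 0.52, adjusted p = 0.000396).

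Of the 12 genes of the MYC and MAX network tested, 3 were higher and 3 lower, with a median of 0.02. The lower ones were Myc, Mycl and Max itself (log2 -0.37). The higher ones were Mycn and the MYC antagonists Mxd1 and Mxd4, which pair with MAX and repress its targets. Mxd1 had 11.4 and 10.9 CPM in the combination against 5.93 and 5.03 CPM in RANKL (log2 1.03, SE 0.17, adjusted p = 0.00061). Mxd4 had 14.4 and 14.8 CPM in the combination against 4.58 and 6.83 CPM in RANKL (log2 1.36, SE 0.20, adjusted p = 0.000302). With the replicate block 5 members were higher.

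The BET and P-TEFb list (9 genes, median 0.10) held 2 higher and 0 lower. The 22.2% called is close to the 22.1% of all genes. Brd2, a BET protein, had 654 and 611 CPM in the combination and 354 and 389 CPM in RANKL (log2 0.77, SE 0.08, adjusted p = 1.29e-05). Hexim1, which holds P-TEFb inactive, had 102 and 133 CPM in the combination and 54.8 and 73.1 CPM in RANKL (log2 0.88, SE 0.20, adjusted p = 0.0059). The kinase Cdk9 (log2 -0.01) and its cyclin Ccnt1 (0.10) were not called. Both genes were higher in each combination library, but the Hexim1 call was lost without combination library 2 (adjusted p = 0.0855) or RANKL library 1 (0.0652).

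Among 15 transcription factors of osteoclasts 7 were lower and 2 higher (median -0.52). Nfatc1, the factor that drives osteoclast formation, had 170 and 109 CPM in the combination and 1115 and 896 CPM in RANKL (log2 -2.85, SE 0.40, adjusted p = 0.000168). Fosl2, an AP-1 subunit, had 45.2 and 31.0 CPM in the combination and 394 and 414 CPM in RANKL (log2 -3.41, SE 0.28, adjusted p = 1.97e-06). Both genes lay below the untreated libraries as well, where Nfatc1 had 600 and 342 CPM and Fosl2 had 142 and 82.0 CPM.

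Further AP-1 subunits were lower, Fosl1 (log2 -3.22) and Fos (-1.90), while Junb and Jund were not called. Prdm1, which encodes Blimp1, a repressor of anti-osteoclastogenic genes, had 0.256 and 0.0241 CPM in the combination and 9.79 and 4.13 CPM in RANKL (log2 -5.82, SE 0.71, adjusted p = 5.55e-05). Mitf, a partner of NFATc1 at osteoclast genes, was lower too (log2 -1.29). Its relative Tfe3 (log2 0.35) and the NFAT family member Nfatc2 (0.98) were the 2 higher ones. Leaving out combination library 1 left 0 higher calls, and leaving out any of the other 3 libraries left 1. In these fits the lower calls numbered 5 or 6 of the 15 genes.

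Genes through which osteoclasts dissolve bone were lower. Acp5, tartrate-resistant acid phosphatase, had 4.65 and 2.65 CPM in the combination and 111 and 95.3 CPM in RANKL (log2 -4.85, SE 0.49, adjusted p = 1.05e-05). Ctsk, the collagen-cleaving protease cathepsin K, had 5.27 and 4.67 CPM in the combination and 30.1 and 26.7 CPM in RANKL (log2 -2.52, SE 0.18, adjusted p = 6.9e-07). Both were below the untreated libraries, at 36.0 and 17.5 CPM for Acp5 and 21.3 and 20.5 CPM for Ctsk.

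Of 16 resorption genes tested 9 were lower and 1 higher, with a median of -0.67. Besides Acp5 and Ctsk these were the matrix metalloproteases Mmp9 (log2 -4.94) and Mmp14 (-4.91), the proton pump subunits Atp6v0d2 (-5.02), Atp6v1b2 (-0.71) and Atp6v1c1 (-0.32), the carbonic anhydrase Car2 (-0.75), which supplies protons, and the vesicle protein Snx10 (-0.66). Atp6v0d2, the pump subunit enriched in osteoclasts, had 3.66 and 1.71 CPM in the combination against 111 and 58.0 CPM in RANKL (SE 0.73, adjusted p = 0.000219). Ostm1, the partner of the chloride channel Clcn7, was the higher one (log2 0.69). Clcn7 (log2 0.38), Tcirg1 (-0.20) and Atp6v1a (0.16) were not called. The higher call was lost without combination library 2, and the block gave 2 higher.

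**Figure D2:**
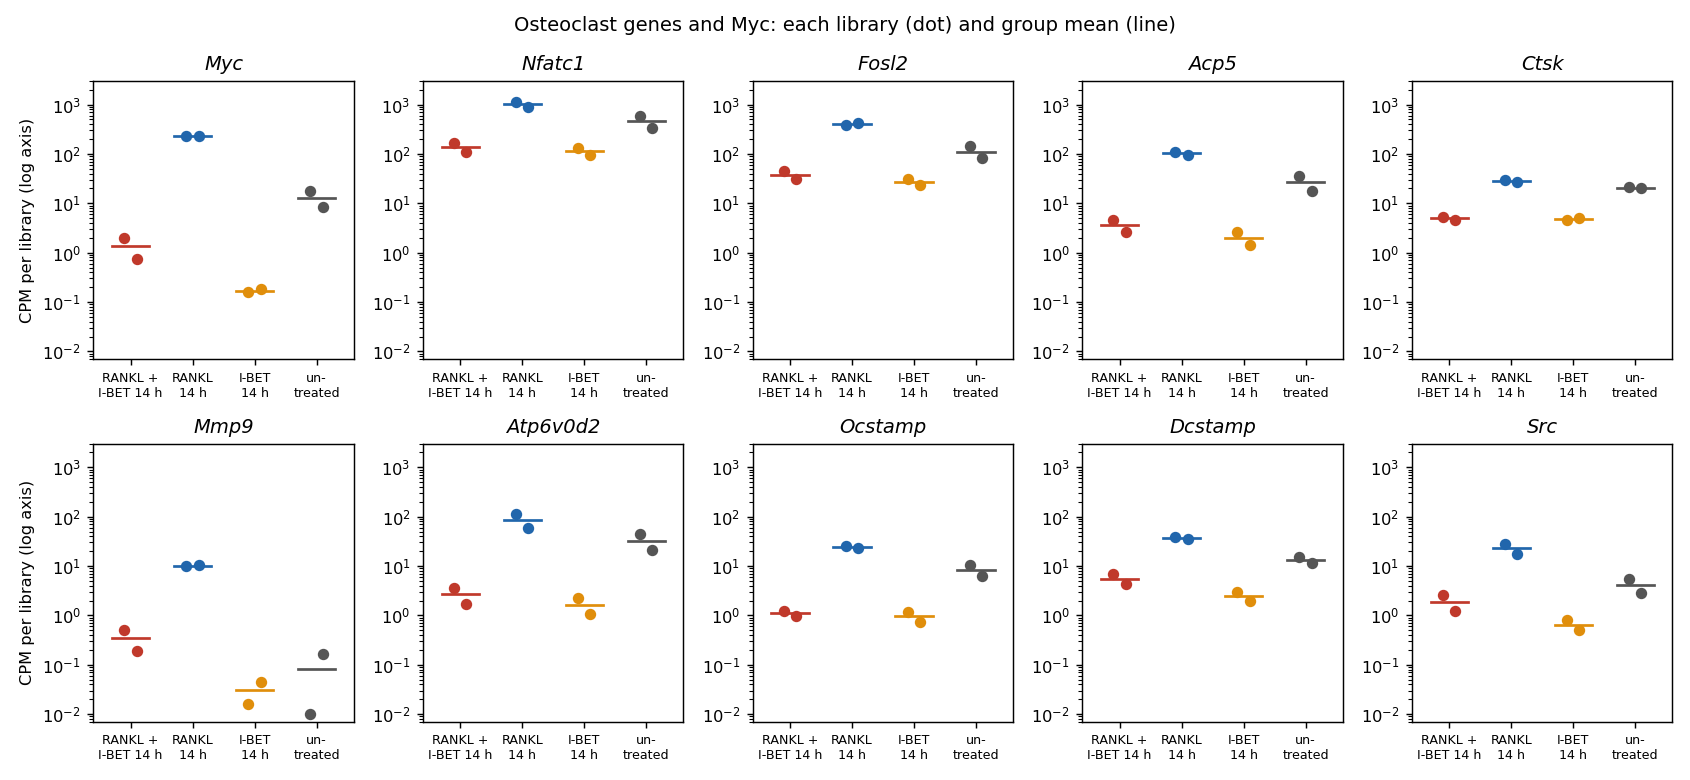
CPM on a log axis of Myc and 9 osteoclast genes in each library (dots) with the group mean (line), for the combination, RANKL and I-BET at 14 hours and untreated cells at hour 0. A library at 0 is drawn at 0.01. The combination lies below RANKL in all 10 panels, and both combination libraries lie above both I-BET libraries for Myc, Acp5, Mmp9, Dcstamp and Src.

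Fusion of precursors into multinucleated cells relies on the membrane proteins DC-STAMP and OC-STAMP. Dcstamp had 6.81 and 4.24 CPM in the combination and 38.2 and 35.2 CPM in RANKL (log2 -2.74, SE 0.31, adjusted p = 2.72e-05). Ocstamp had 1.21 and 0.987 CPM in the combination and 25.0 and 22.6 CPM in RANKL (log2 -4.45, SE 0.33, adjusted p = 9.81e-07). The combination libraries lay below the RANKL libraries in both genes. The fusion list (10 genes tested, median -0.48) held 5 lower and 0 higher calls, the others being Atp6v0d2, the protease Adam8 (-0.75) and the tetraspanin Cd9 (-0.39). Adam8 and Cd9 are the calls that leaving out a library can end, which left 3 lower calls without combination library 1, combination library 2 or RANKL library 2. The related tetraspanin Cd81 (log2 -0.08) and the surface protein Cd47 (-0.02) were not called.

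Of 20 genes of RANK, M-CSF and costimulatory signalling 5 were higher and 5 lower (median -0.03). Tnfrsf11a, which encodes RANK, had 161 and 98.1 CPM in the combination and 361 and 268 CPM in RANKL (log2 -1.28, SE 0.39, adjusted p = 0.0306). This call was lost without combination library 2 (adjusted p = 0.224) or RANKL library 1 (0.171), either of which left 3 lower calls in the list. Traf1, a TNF receptor adaptor, was lower (log2 -1.84, adjusted p = 0.000633), as were the kinase Btk (-0.65) and the adaptor Gab2 (-0.66). Tnfrsf1b, a TNF receptor, had 27.5 and 32.4 CPM in the combination and 5.78 and 6.12 CPM in RANKL (log2 2.33, SE 0.17, adjusted p = 7.05e-07). Sirpa, the receptor of CD47, had 529 and 590 CPM in the combination and 182 and 189 CPM in RANKL (log2 1.59, SE 0.11, adjusted p = 6.21e-07). The kinase Syk (0.89), its adaptor Fcer1g (0.59) and Plcg2 (0.36) were also higher, and with the block 8 genes were. Traf6, Csf1r and Tyrobp were not called, although the block called Csf1r (adjusted p = 0.00375) and Tyrobp (0.00442).

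Transcription factors that hold back osteoclast formation also changed. Irf8, a factor of the macrophage lineage that opposes NFATc1, had 38.4 and 60.8 CPM in the combination and 6.59 and 10.8 CPM in RANKL (log2 2.51, SE 0.33, adjusted p = 0.000101). Both combination libraries lay above both RANKL libraries, and they overlapped the untreated ones (51.9 and 74.0 CPM).

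Of 8 such repressors tested 3 were higher, among them Irf8 and Id3, an inhibitor of DNA binding (adjusted p = 0.00934), and 1 was lower, Bcl6 (-0.84, adjusted p = 0.00268). The Id3 call was lost without combination library 1 (adjusted p = 0.0845) or RANKL library 2 (0.0813), and the block gave 2 lower. Cebpe, Id1, Id2 and Rbpj were not called, and the list median was 0.16. Among 16 myeloid lineage factors 6 were higher and 2 lower (median 0.51), among them the early response factor Egr1 (log2 1.94, adjusted p = 0.000955) and Klf2 (1.75, adjusted p = 0.000205). Egr2 was lower (-2.47, adjusted p = 0.00956) and lost its call without combination library 2 (0.11). Spi1, the lineage factor PU.1, had a log2 fold change of -0.48 (adjusted p = 0.0232), a call lost without combination library 1 (0.133), combination library 2 (0.0891) or RANKL library 2 (0.304). Higher calls in the list fell to 3 without combination library 1, combination library 2 or RANKL library 1, and lower calls to 1 without either combination library or RANKL library 2. With the block 4 were lower.

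Receptors of macrophages moved in both directions. Of 15 surface markers tested 4 were higher and 7 lower (median -0.38), and of 14 chemotaxis receptors 3 were higher and 4 lower (median -0.27). Cx3cr1, the fractalkine receptor, had 246 and 340 CPM in the combination and 68.2 and 103 CPM in RANKL (log2 1.78, SE 0.23, adjusted p = 7.48e-05). Ccr1, a receptor of CC chemokines, had 0.146 and 0.120 CPM in the combination and 4.85 and 3.36 CPM in RANKL (log2 -4.94, SE 0.62, adjusted p = 6.52e-05). The groups did not overlap in either receptor.

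Cd36, a scavenger receptor, had 241 and 179 CPM in the combination and 813 and 670 CPM in RANKL (log2 -1.82, SE 0.34, adjusted p = 0.00161). The scavenger receptor Msr1 (-1.14), the phagocytic kinase Axl (-1.77) and the sialic acid receptor Siglec1 (-2.68) were lower too. Among the surface markers Lyz2, lysozyme, was higher (log2 0.85, adjusted p = 0.02), but not without combination library 2 (0.205) or RANKL library 1 (0.16). Lower surface markers numbered 4 without combination library 1, combination library 2, RANKL library 2 or untreated library 2. The higher ones numbered 2 without combination library 1, and 1 without combination library 2 or RANKL library 1. Of 13 genes of MHC antigen presentation tested 2 were higher and 1 lower (median 0.07), and the 23.1% called is close to the 22.1% of all genes. The higher ones serve MHC class II. The invariant chain Cd74 had 142 and 184 CPM in the combination and 30.2 and 42.7 CPM in RANKL (log2 2.16, SE 0.28, adjusted p = 8.16e-05), and the peptide loader H2-DMa was higher as well (1.22). Psmb10, a proteasome subunit, was the lower one (-0.90), and the block gave 4 higher and 3 lower.

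The interferon-stimulated list, the antiviral genes that macrophages express under type I interferon, had the lowest median of the 42 lists examined. Of its 43 tested genes 36 were lower and 2 higher, with a median of -2.11. Rtp4 had 0.842 and 1.35 CPM in the combination and 42.1 and 63.8 CPM in RANKL (log2 -5.56, SE 0.48, adjusted p = 3.09e-06). Oas3, a sensor of double-stranded RNA, had 11.3 and 8.38 CPM in the combination and 72.5 and 106 CPM in RANKL (log2 -3.19, SE 0.27, adjusted p = 2.4e-06). Isg15, a ubiquitin-like modifier, had 0.440 and 0.529 CPM in the combination and 4.34 and 9.31 CPM in RANKL (log2 -3.79, SE 0.48, adjusted p = 6.55e-05). In each of the 36 genes both combination libraries also lay below both untreated libraries, as they did in 1177 of all 1801 lower genes. The share over all tested genes was not computed.

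The transcription factors that carry the interferon signal did not all follow. Irf7 (log2 -2.46) and Irf9 (-1.97) were lower, while Stat2 (0.75) and Irf1 (0.77) were the 2 higher genes. Stat2 had 31.3 and 31.4 CPM in the combination and 17.1 and 20.3 CPM in RANKL (adjusted p = 0.00238). Irf1 had 19.8 and 21.4 CPM in the combination and 11.6 and 12.6 CPM in RANKL (adjusted p = 0.004). Ifit2, Mx1, Ifi35, Bst2 and Samhd1 were not called. Ifit, Oas, Ifi20x and Gbp genes have close copies, so their counts may be split between members. Against I-BET alone at 14 hours, 7 of the 36 lay above, 5 below, and 24 overlapped in the combination. Over all 1801 lower genes 751 lay above, 224 below, and 826 overlapped.

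Promoters of interferon-stimulated genes often carry the interferon-stimulated response element. Its core, GAAA followed by any 2 bases and another GAAA, on either strand (TTTC, any 2 bases and TTTC when read on the other), was searched from 250 bases before to 50 after the start site in the RefSeq promoter table (GRCm38.p6). It was found in 14 of the 25 lower genes with a window (56.0%), in 16 of 31 tested members with a window (51.6%), and in 363 of 9629 tested genes (3.77%). Among all called genes it was in 5.75% of 1322 lower and 2.91% of 1272 higher ones. A match is a description of letters and not a site in use. The 250 bases before the start are shown for the 3 lower genes with the largest falls that had a match there and a mean of at least 1 CPM over the 4 libraries, a display minimum set after the matches were seen. Capitals mark the core, with overlapping matches merged.
Isg15: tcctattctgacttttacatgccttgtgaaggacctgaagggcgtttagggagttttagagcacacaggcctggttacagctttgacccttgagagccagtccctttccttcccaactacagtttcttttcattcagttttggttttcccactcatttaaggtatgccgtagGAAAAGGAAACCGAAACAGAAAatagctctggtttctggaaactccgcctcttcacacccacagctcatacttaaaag
Oas3: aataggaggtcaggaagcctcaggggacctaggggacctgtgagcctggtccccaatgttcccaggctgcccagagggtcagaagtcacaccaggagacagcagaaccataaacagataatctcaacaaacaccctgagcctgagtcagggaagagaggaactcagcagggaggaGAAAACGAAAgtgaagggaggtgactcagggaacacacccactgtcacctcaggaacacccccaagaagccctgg
Ifit1: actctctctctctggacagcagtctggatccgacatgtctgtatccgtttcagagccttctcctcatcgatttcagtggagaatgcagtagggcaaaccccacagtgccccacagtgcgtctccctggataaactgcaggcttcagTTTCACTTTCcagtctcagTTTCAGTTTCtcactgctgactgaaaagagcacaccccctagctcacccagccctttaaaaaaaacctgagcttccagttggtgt
These windows read on the gene's own strand and lie at chr4:156200819-156201068 (minus strand), chr5:120777660-120777909 (minus strand) and chr19:34640639-34640888 (plus strand) for Isg15, Oas3 and Ifit1. The core begins between 66 and 78 bases before the start in Isg15, where 3 matches overlap, 75 before it in Oas3, and 85 and 104 before it in Ifit1. Ifit1, which binds foreign RNA, had 0.549 and 0.674 CPM in the combination and 4.46 and 5.03 CPM in RANKL (log2 -2.93, SE 0.32, adjusted p = 2.16e-05).

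Genes that build ribosomes, a group known to respond to MYC, were lower in smaller steps. Of 37 ribosome biogenesis genes 27 were lower and 0 higher (median -0.47). Mybbp1a, a nucleolar protein, had 594 and 569 CPM in the combination and 940 and 948 CPM in RANKL (log2 -0.70, SE 0.08, adjusted p = 2.21e-05). Dkc1, the pseudouridine synthase dyskerin, had 220 and 220 CPM in the combination and 378 and 359 CPM in RANKL (log2 -0.75, SE 0.09, adjusted p = 5.2e-05). Ifrd2 had the largest fall of the list (log2 -0.99, adjusted p = 0.00198). Without combination library 1 the lower calls numbered 16.

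Of 27 genes of nucleotide and one-carbon synthesis 18 were lower and 0 higher (median -0.42). Mthfd2, the mitochondrial folate enzyme, had 127 and 138 CPM in the combination and 243 and 268 CPM in RANKL (log2 -0.95, SE 0.10, adjusted p = 1.88e-05). Mthfd1l (-0.84) and Shmt1 (-0.70), which act in the same folate cycle, were also lower. Calls numbered 10 without combination library 1 and 11 without RANKL library 2. The E-box CACGTG, the letters that MYC and MAX bind, was in 8 of 31 ribosome biogenesis promoters (25.8%), 4 of 23 of nucleotide synthesis (17.4%) and 11.6% of tested genes. Among members called lower it was in 7 of 24 (29.2%) and 2 of 16 (12.5%). It was in 12.2% of all lower and 11.9% of all higher genes.

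Of 32 cytosolic ribosomal proteins 1 was lower (Rps4x) and 0 higher (3.12% called, median -0.26). With the block 24 were lower. Rps4x, at 888 and 932 CPM in the combination and 1077 and 1139 CPM in RANKL (log2 -0.28, adjusted p = 0.0301), kept its call in none of the 4 fits without a library. Mitochondrial ribosome and translation genes had 9 of 28 lower (median -0.27), 21 with the block, 2 without combination library 1 or RANKL library 2, and 5 without combination library 2 or untreated library 2. No gene of 30 in oxidative phosphorylation was called (median -0.11), and the block called 1 higher and 4 lower.

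Of 33 DNA replication genes 13 were lower and 0 higher (median -0.28), and 21 were lower with the block. Mcm10, a replication initiation factor, had 73.4 and 72.8 CPM in the combination and 123 and 120 CPM in RANKL (log2 -0.73, SE 0.08, adjusted p = 1.56e-05). Cdt1, the licensing factor, and Uhrf1, which binds replicating chromatin, were lower as well (log2 -0.77 and -0.72). Lower calls numbered 8 without either combination library and 7 without RANKL library 2. Of 25 mitosis genes 8 were lower and 0 higher (median -0.14), led by the anaphase activator Cdc20 (-0.67) and the ubiquitin enzyme Ube2c (-0.66), with 4 or 5 lower in each fit without a library. The Cdc20 call was lost without combination library 1 (log2 -0.538) or RANKL library 2 (-0.476). The proliferation marker Mki67 (0.13) was not called. Of 19 G1 cyclins and CDK inhibitors tested 2 were higher and 2 lower (median -0.07), and the 21.1% called is close to the 22.1% of all genes. Rb1, the retinoblastoma protein that restrains entry into S phase, had 57.0 and 45.0 CPM in the combination and 22.5 and 18.7 CPM in RANKL (log2 1.31, SE 0.23, adjusted p = 0.00105). Its relative Rbl2 was higher too (0.57), Ccne1 (-0.54) and Cdc25a (-0.68) were lower, and the block gave 4 higher and 8 lower.

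Of 27 chaperone and folding genes tested 10 were lower and 4 higher (median -0.21). The lower ones were cytosolic or mitochondrial chaperones, among them the inducible Hspa1a (log2 -3.20, at under 1 CPM in all 4 libraries), Hspa9 (-0.70), which works in mitochondria, Hsph1 (-0.68) and the chaperonin subunit Cct3 (-0.67). The Cct3 call was lost without combination library 1 (log2 -0.526) or RANKL library 2 (-0.515). The 4 higher ones work in the endoplasmic reticulum: Calr (0.77), Pdia4 (0.76), Hsp90b1 (0.59) and Pdia3 (0.54). Other genes of that compartment in the list, Hspa5, Pdia6, Canx, Dnajb9, Dnajb11, Hyou1 and Sdf2l1, and its stress factor Xbp1, were not called, and no test compared compartments. Calr had 2536 and 3167 CPM in the combination and 1446 and 1905 CPM in RANKL (adjusted p = 0.0252). All 4 of these higher calls were lost without combination library 2 or RANKL library 1, and the block gave 9 higher. Of 28 ATF4 targets and tRNA charging genes 13 were lower and 3 higher (median -0.46), with Asns, asparagine synthetase, lower (-0.76) and the stress factors Atf3 (2.27) and Ddit3 (1.05) higher.

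Histone genes had the highest median of the lists. Of 16 tested 9 were higher and 0 lower (median 1.63). H1f0, the linker histone of resting cells, had 531 and 614 CPM in the combination and 87.7 and 114 CPM in RANKL (log2 2.503, SE 0.17, adjusted p = 5.47e-07). Hist1h1c, a clustered linker histone, had 101 and 122 CPM in the combination and 11.7 and 16.3 CPM in RANKL (log2 2.99, SE 0.22, adjusted p = 8.7e-07). Hist1h2bc, an H2B gene, had 26.6 and 26.5 CPM in the combination and 3.28 and 3.47 CPM in RANKL (log2 2.98, SE 0.19, adjusted p = 2.61e-07). The groups stood far apart in these genes. Many clustered histone transcripts lack a poly(A) tail and are captured in part by poly(A) selection, and histone genes share sequence, so these values are uncertain as levels.

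Enzymes of eicosanoid synthesis, which turn arachidonic acid into prostaglandins and leukotrienes, had 6 higher and 1 lower of 14 tested (median 0.53). Ptgs1, cyclooxygenase 1, had 13.6 and 15.9 CPM in the combination and 0.578 and 1.19 CPM in RANKL (log2 4.06, SE 0.25, adjusted p = 2.44e-07). Alox5, the leukotriene-forming 5-lipoxygenase, had 24.1 and 38.3 CPM in the combination and 2.73 and 3.65 CPM in RANKL (log2 3.29, SE 0.34, adjusted p = 1.29e-05). Both enzymes were high in the combination and low in RANKL. The inducible cyclooxygenase Ptgs2 was the lower one, at 17.3 and 13.2 CPM in the combination and 40.1 and 30.4 CPM in RANKL (log2 -1.21, SE 0.29, adjusted p = 0.0071). That call was lost, and 3 higher calls were left, without combination library 2 (adjusted p = 0.0846) or RANKL library 1 (0.0742).

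The inflammatory lists were mixed. Of 20 cytokines and growth factors 6 were lower and 2 higher (median -0.84), and with the block 12 were lower. Il1rn, the IL-1 receptor antagonist, had 3.33 and 2.74 CPM in the combination and 38.5 and 42.2 CPM in RANKL (log2 -3.74, SE 0.16, adjusted p = 2.15e-08). The vessel growth factor Vegfa (-2.13), the platelet growth factor Pdgfb (-1.76) and Igf1 (-2.17) were lower as well. Areg, an EGF receptor ligand, was lower at under 1 CPM in all 4 libraries (-3.63). Tnfsf14, the cytokine LIGHT, was higher at 0.256 and 0.674 CPM in the combination and 0.0207 and 0 CPM in RANKL (adjusted p = 0.00158). Tnfsf9, the 4-1BB ligand, was higher too (1.42, adjusted p = 0.0059) but lost its call without combination library 2 (0.0651) or RANKL library 1 (0.0647). Of 13 chemokines 4 were lower and 2 higher (median -0.08), the lower ones led by Ccl9, at 243 and 196 CPM in the combination and 906 and 964 CPM in RANKL (log2 -2.09, SE 0.21, adjusted p = 1.15e-05). Without combination library 2 a single chemokine was lower, and the higher ones numbered 1 without combination library 1 and 0 without RANKL library 1. NF-kB subunits and feedback genes had 5 higher and 4 lower of 19 (median 0.04), with 2 lower without combination library 2 or either RANKL library, and Tnf (0.25) and Nfkbia (0.13) were not called.

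**Figure D3:**
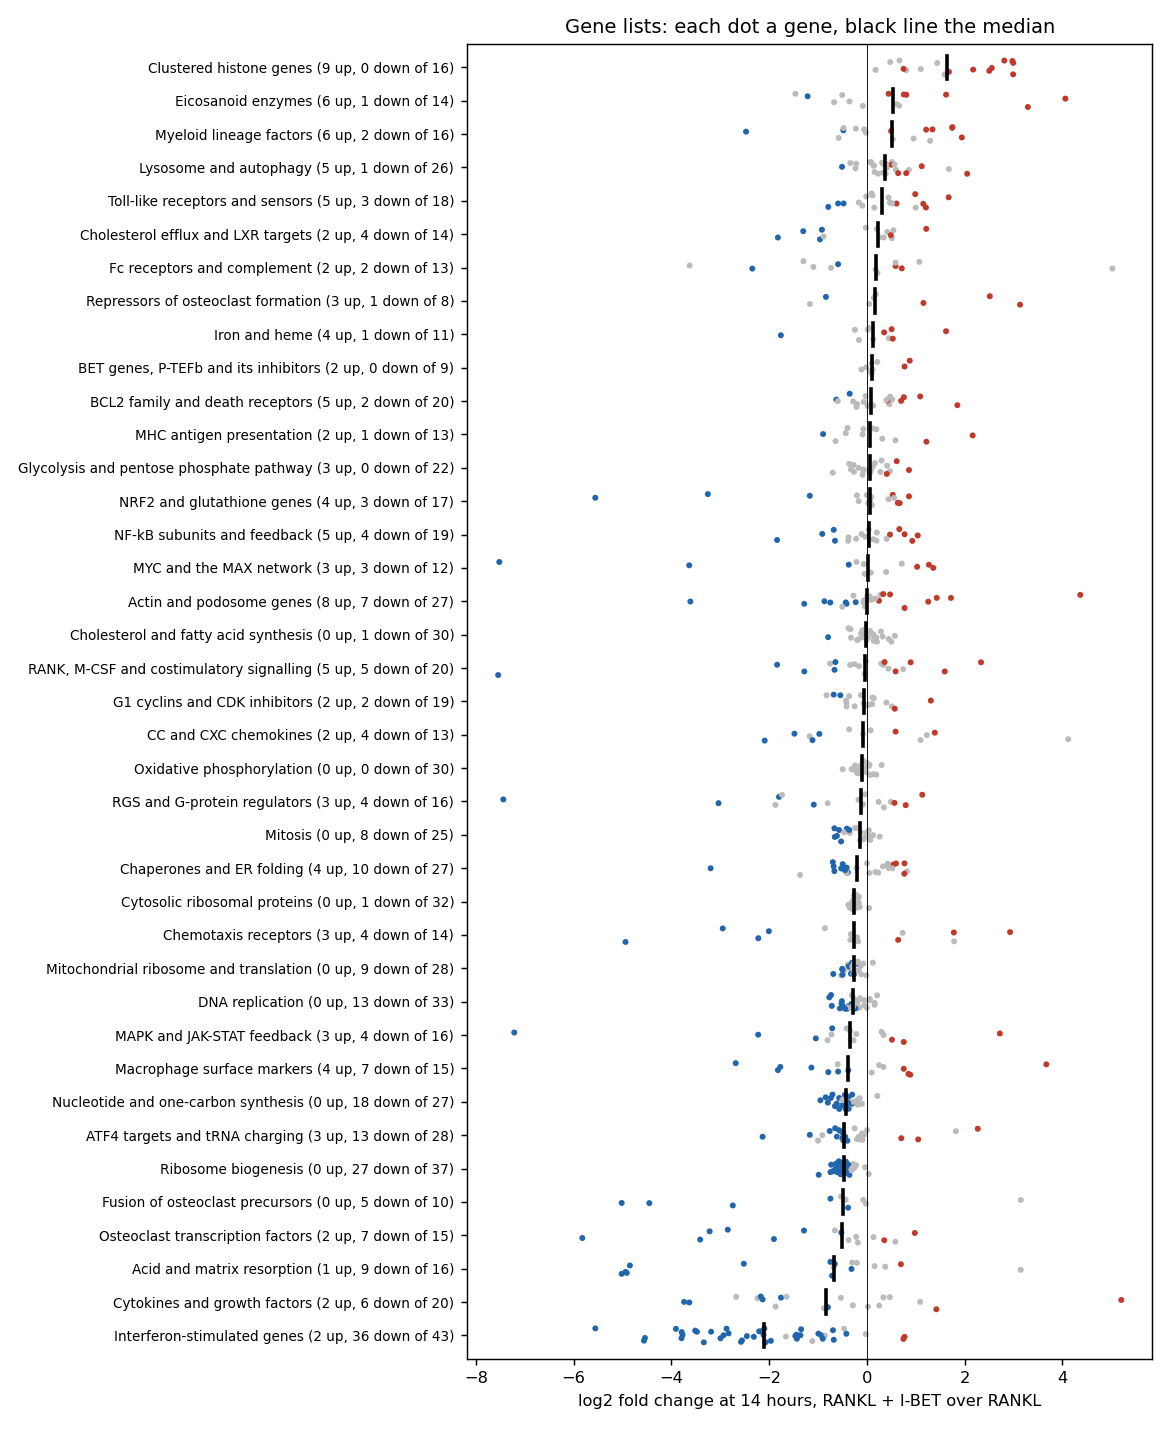
Log2 fold change (combination over RANKL at 14 hours) of the tested members of each gene list with at least 8 tested genes, cell type markers left out, sorted by median (black line). Red dots are called higher, blue lower and grey not called. The interferon-stimulated list lies lowest (median -2.11, 36 lower of 43) and the histone list highest (1.63, 9 higher of 16). Sirpb1a and Spry1 have 0 counts in the combination and are drawn at fitted values that depend on the prior count.

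Iron handling genes moved in both directions. Ftl1, the ferritin light chain, had 2422 and 2922 CPM in the combination and 697 and 1045 CPM in RANKL (log2 1.62, SE 0.30, adjusted p = 0.00127). Slc11a1, the phagosomal metal transporter, had 45.0 and 42.9 CPM in the combination and 138 and 159 CPM in RANKL (log2 -1.76, SE 0.11, adjusted p = 2.61e-07). The iron list held 4 higher and 1 lower of 11 (median 0.13), with 2 higher left without either combination library or RANKL library 1. Of 26 lysosome and autophagy genes 5 were higher and 1 lower (median 0.36), and the 23.1% called is close to the 22.1% of all genes. The higher ones were led by the autophagy genes Wipi1 (2.05), Ulk1 (1.12) and Map1lc3b (0.80). With the block 15 were higher and 4 lower, and without combination library 2 or RANKL library 1 there were 3 higher, and 0 lower without combination library 1 or RANKL library 2. In the list of cholesterol efflux and LXR targets (2 higher and 4 lower of 14, median 0.23) Lipa, lysosomal acid lipase, had 730 and 770 CPM in the combination and 319 and 328 CPM in RANKL (log2 1.21, SE 0.12, adjusted p = 7.73e-06). Of 30 cholesterol and fatty acid synthesis genes 1 was lower, the elongase Elovl6 (-0.79), and 0 were higher (median -0.01), with 5 higher and 3 lower under the block and 4 higher without RANKL library 2. The efflux list had 6 higher and 5 lower under the block, and 1 higher without either combination library, RANKL library 1 or untreated library 2.

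Most of the 15 largest rises did not take a gene above its level in untreated cells. In 8 of these genes both combination libraries lay below both untreated libraries, in 3 above, and in 4 they overlapped. Rcsd1, a regulator of actin capping, had the largest rise, with 5.86 and 11.2 CPM in the combination and 0.537 and 0.292 CPM in RANKL (log2 4.36, SE 0.47, adjusted p = 1.93e-05). Ighm, the immunoglobulin mu constant region, had 93.3 and 119 CPM in the combination and 5.25 and 9.67 CPM in RANKL (log2 3.83, SE 0.29, adjusted p = 1.22e-06). Untreated cells had 5.02 and 7.76 CPM of Rcsd1 and 87.5 and 111 CPM of Ighm, so both genes overlapped the combination. Against I-BET alone at 14 hours the combination was below in 12 of the 15, above in 1 and overlapping in 2. Over all 1737 higher genes it was below in 669, above in 233 and overlapping in 835.

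The 15 largest falls all lay below the untreated level as well. Rgs16, which shortens G-protein signals, had 0.696 and 0.289 CPM in the combination and 82.9 and 77.5 CPM in RANKL (log2 -7.44, SE 0.64, adjusted p = 3.03e-06). Bdh2, a hydroxybutyrate dehydrogenase, had 0.549 and 0.289 CPM in the combination and 39.2 and 37.9 CPM in RANKL (log2 -6.59, SE 0.47, adjusted p = 7.77e-07). Both stood far below untreated cells, where Rgs16 had 19.9 and 9.64 CPM and Bdh2 had 14.0 and 8.65 CPM. Against I-BET alone 7 of the 15 were higher in the combination, 8 overlapped and 0 were lower. Vegfc, a lymphatic growth factor, was one of the 7, with 2.86 and 1.93 CPM in the combination and 0.252 and 0.363 CPM in I-BET alone. Untreated cells exist at hour 0 only, so time in culture and treatment cannot be told apart in these comparisons. Counted over all calls, 1177 of the 1801 lower genes were below and 215 above both untreated libraries, and 1110 of the 1737 higher genes were above and 264 below them. Against I-BET alone, 751 of the 1801 lower genes were higher in the combination, 826 overlapped and 224 were lower. The shares over all tested genes were not computed, so these counts have no background rate beside them.

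**Figure D4:**
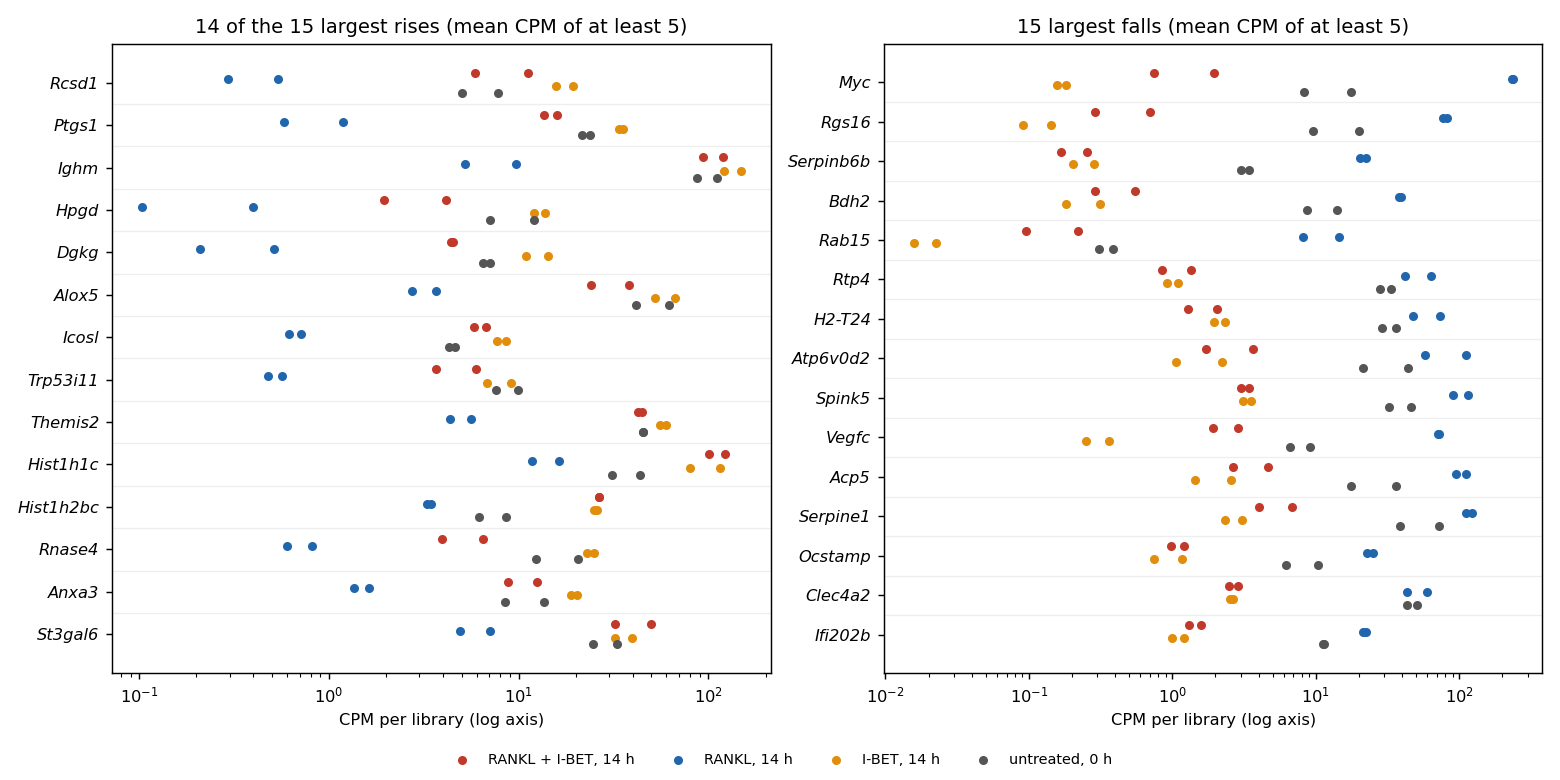
CPM per library on a log axis for 14 of the 15 largest rises (left) and the 15 largest falls (right) among called genes with a mean of at least 5 CPM over the 20 libraries, with 2 dots per group. In each of the 15 falls the combination lies below untreated cells. In 7 of the 14 rises drawn it lies below untreated cells too, although above RANKL.

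Some genes had no count at all in the combination. Of the lower calls 46 had 0 counts in both combination libraries, and of the higher calls 5 had 0 counts in both RANKL libraries. Ccr3, the eotaxin receptor, had 0 counts in the combination and 2.46 and 0.877 CPM in RANKL, at least 38.4-fold lower with a floor of 3 counts over the group (adjusted p = 0.000676). It was named after its values were seen, and the bound covers counting error only.

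The effect of I-BET at 14 hours was next set against its effect at 4 hours, by a test of the difference itself. The effect differed in 575 of 16042 genes (3.58%), more positive at 14 hours in 395 (2.46%) and more negative in 180 (1.12%). The absolute effect was larger at 14 hours in 467 of them and smaller in 108. The fitted signs differed between the 2 hours in 277, counted whether or not the effect at 4 hours was called. A very small effect at 4 hours can thus count as opposite, as in Cx3cr1 (log2 -0.005 at 4 hours and 1.78 at 14 hours). The 277 are therefore not a count of reversals, and the share over all genes was not computed. With the replicate block 1395 were more positive (8.7%) and 1190 more negative (7.42%), together 16.1%. DESeq2 gave 737 (5.71%) and 334 (2.59%), together 8.3% of the genes it tested. Without each of the 8 libraries in turn there were 170 to 264 and 64 to 95.

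Osteoclast effector genes were among those whose fall deepened. Acp5 had 21.1 and 13.7 CPM in the combination and 34.5 and 22.6 CPM in RANKL at 4 hours, a log2 fold change of -0.71 (adjusted p = 0.35). At 14 hours it was -4.85, and the difference of -4.13 (SE 0.61) had an adjusted p of 0.00184. Ctsk had a log2 fold change of -0.03 at 4 hours (adjusted p = 0.97) and -2.52 at 14 hours, and this difference was called (adjusted p = 0.000126). Atp6v0d2 differed by -4.25 (SE 0.91, adjusted p = 0.02), a call lost without combination library 2 (0.124) or RANKL library 1 (0.0722) of 14 hours, or combination library 1 (0.0848) or RANKL library 2 (0.0865) of 4 hours. Spink5, a protease inhibitor, differed as well (-1.15 at 4 hours and -5.003 at 14 hours, adjusted p = 6.43e-05). For Nfatc1 (-1.73 at 4 hours), Fosl2 (-2.09) and Dcstamp (-2.26) the difference was not called (adjusted p = 0.35, 0.063 and 0.69).

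Among genes picked for the most positive differences were Ptgs1 and Ighm, so a small effect at 4 hours is built into that choice. Ptgs1 had 16.8 and 18.8 CPM in the combination and 17.0 and 16.3 CPM in RANKL at 4 hours, and the difference between hours was 3.96 (SE 0.32, adjusted p = 6.43e-05). Ighm had 49.5 and 68.3 CPM in the combination and 35.7 and 43.1 CPM in RANKL at 4 hours, with a difference of 3.25 (SE 0.38, adjusted p = 0.000505). The Ptgs1 levels of the combination were similar at the 2 hours, and in both genes the RANKL libraries were lower at 14 hours than at 4 hours. Irf8 (0.52 at 4 hours, adjusted p of the difference 0.026), Sirpa (0.22, 0.00038) and Alox5 (0.16, 0.00136) differed likewise, as did Cx3cr1 (adjusted p = 0.00577).

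For some genes changed at both hours no difference was called, which does not show equal effects. The difference between 14 and 4 hours was not called for Hist1h2bc (log2 3.40 at 4 hours, adjusted p of the difference 0.49), Hexim1 (1.18, 0.73) or Ulk1 (1.29, 0.66). Brd2 had a larger effect at 4 hours (1.53) than at 14 hours (0.77), and this difference was called (adjusted p = 0.0018). Of the 43 interferon-stimulated genes the fall deepened in 10, among them Rtp4 (-2.68 at 4 hours, -5.56 at 14 hours, adjusted p = 0.016), and 1 difference was positive.

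Effects at 24 hours were set against those at 14 hours in the same way. The test of the difference called 7 of 16042 genes (0.0436%), 4 more positive (0.0249%) and 3 more negative (0.0187%) at 24 hours. The block gave 156 (0.972%) and 138 (0.86%), together 1.83%, and DESeq2 gave 30 (0.205%) and 43 (0.294%), together 0.499%. Lsp1, an actin-binding protein of leukocytes, had log2 fold changes of 1.05 at 14 hours and 3.65 at 24 hours, a difference of 2.60 (SE 0.26, adjusted p = 0.00175). Its RANKL libraries stood at 12.5 and 18.5 CPM at 14 hours and 4.53 and 4.97 CPM at 24 hours. Lpin2, a phosphatidate phosphatase, was higher in the combination at 14 hours (0.95) and had 74.7 and 73.0 CPM in the combination against 69.7 and 73.8 CPM in RANKL at 24 hours (log2 0.04). The others were Hspa4l, a heat shock protein, Slc44a1, a choline transporter, Rnf24, Kctd12 and Id1, an inhibitor of DNA binding. Id1 had the largest difference (3.54, SE 0.55, adjusted p = 0.0444) at low levels, with 1.32 and 0.854 CPM in the combination against 0.0743 and 0.101 CPM in RANKL at 24 hours. Lsp1 was the one of the 6 with a mean of at least 5 CPM that kept its call without each of the 8 libraries in turn, and Id1 was not checked in this way. In the fits with 1 library left out there were 1 to 4 positive and 0 to 3 negative calls.

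**Figure D5:**
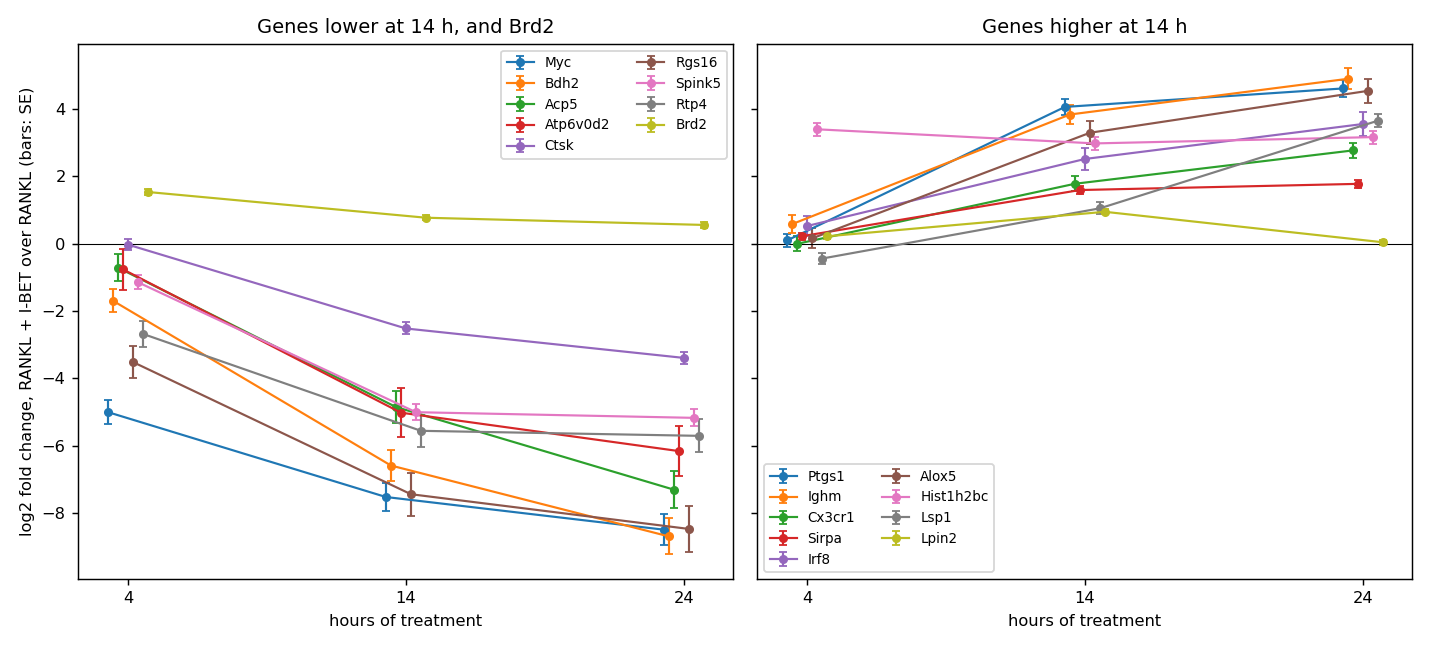
Log2 fold change (combination over RANKL) with its SE at 4, 14 and 24 hours for 9 genes (left) and 9 genes higher at 14 hours (right), joined by lines and shifted sideways for legibility. Acp5 lies at -0.71, -4.85 and -7.30, Ptgs1 at 0.10, 4.06 and 4.61, and Brd2 declines from its 4 hour value of 1.53.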

How the data were processed

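RNA was poly(A)-selected and sequenced as paired-end reads, per the labels' protocols. Per the submitters' processing notes the tools were FastQC, STAR 2.5.3a and DESeq2 1.16.1, with builds GRCm38 and mm10; neither a counting tool nor a strand setting is given in the sources used here, so overlapping genes, antisense genes and gene families are uncertain. The authors deposited read counts per gene and RPKM (FPKM is not used); the deposited RPKM equal the counts scaled by length and library total. No count row lacked a gene and all deposited columns belonged to the 20 libraries. Symbols came from the file for 42745 of 50686 genes and from GENCODE for 7915.

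Counts were analysed with edgeR 4.0.16 under R 4.3.3, with TMM normalization. Genes were kept by filterByExpr (16042), all 20 libraries entered a single fit of group means with 10 residual degrees of freedom, and contrasts were tested by robust quasi-likelihood F tests and Benjamini-Hochberg adjustment over all tested genes. Differences between hours were contrasts in the same fit. Alternatives were RLE factors, dropping the filter, a minimum CPM of 1 in 4 libraries, DESeq2 1.42.0, limma 3.58.1 on log2(RPKM + 1), only the 4 libraries, a replicate block, each library left out, and (chosen after seeing the data) untreated library 2 left out. With 1 library left out, the remaining one is assumed to vary like the other groups. Library numbers were checked for pairing. Deviations from group means correlated between same-numbered libraries in all 45 pairs of groups (0.22 to 0.596, median 0.454). For the groups compared the correlation was 0.491. The numbers thus behaved as pairing, but only the replicate block used them. The fit without the block stayed the main one, so its p-values ignore this pairing and its uncalled genes may be called with the block. The biological coefficient of variation was 0.162 in the main fit, against 0.0751 with the block.

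Gene lists came from general knowledge, and the comparison, lists and rules were chosen with earlier results of these data known. Named genes were the 15 largest rises and falls (mean CPM of at least 5, libraries apart), up to 5 called members per list (mean CPM of at least 1), 10 fixed genes and up to 5 differences each way per pair of hours; the text prints a part, and further list members are named to account for their lists. Some genes are not reported here. On simulated data with 15620 genes, edgeR found 10 of 67 genes changed 1.5-fold, 49 of 67 changed 2-fold and 63 of 66 changed 4-fold, with 2 false calls, so small changes may be missed. Far fewer genes were changed there than were called in the data, and no pairing of libraries was simulated. These rates may therefore differ from those of the comparison itself. RefSeq promoter windows existed for 9629 tested genes.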

Additional observations from a re-analysis of the deposited data

Results flagged for a closer look

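The genes below are those whose effect of I-BET on RANKL-treated cells differed between hours in a test of the difference itself, with a mean of at least 5 CPM over the 20 libraries and up to 5 each way. From 4 to 14 hours the log2 effect became more negative by the difference of -4.89 in Bdh2, -4.25 in Atp6v0d2, -4.13 in Acp5, -3.92 in Rgs16 and -3.85 in Spink5. It became more positive by 3.25 in Ighm, 3.38 in Rcsd1, 3.54 in Dgkg, 3.96 in Ptgs1 and 3.97 in Hpgd. The calls for Bdh2, Acp5, Spink5, Ighm, Rcsd1, Dgkg and Ptgs1 held without each of the 8 libraries in turn. By limma on log2(RPKM + 1) the differences of Rcsd1 (0.57, adjusted p = 0.281), Dgkg (0.725, adjusted p = 0.0819), Rgs16 (-1.48, adjusted p = 0.131) and Hpgd (1.38, adjusted p = 0.114) were not called. Rgs16 was lost without combination library 2 of 14 hours (adjusted p = 0.11), combination library 1 (0.05) or RANKL library 2 (0.0506) of 4 hours. Hpgd was lost without combination library 2 (0.18) or RANKL library 1 (0.141) of 14 hours, or combination library 1 (0.131) or RANKL library 2 (0.153) of 4 hours.

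From 14 to 24 hours the differences were -1.5 in Hspa4l, -1.16 in Rnf24, -0.9 in Lpin2, 0.81 in Slc44a1, 1.26 in Kctd12 and 2.6 in Lsp1. Id1, below that minimum, had a difference of 3.54 (adjusted p = 0.0444). Hspa4l had 76.2 and 68.1 CPM in the combination against 81.6 and 81.4 CPM in RANKL at 14 hours, and 62.2 and 72.2 CPM in the combination against 188 and 241 CPM in RANKL at 24 hours. Rnf24 was higher in the combination at 14 hours and lower at 24 hours (log2 0.45 and -0.71). No explanation for these differences was tested.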

How the results depend on the processing

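No named call changed direction under any alternative. In each called gene, however, the combination and RANKL libraries do not overlap. Such a gene can hardly change direction when a library is left out, so the constant direction is no added support. Most named calls were also picked for large changes, so the counts that follow do not give the share of all calls that hold. Of 192 named calls, 192 held with the replicate block, DESeq2, RLE factors and the CPM filter, 186 without a filter, 181 of 184 by limma on RPKM, 165 with only the 4 libraries and 152 to 163 with 1 library left out; 53 were lost in at least 1 such fit. Leaving out untreated library 2 kept 184.

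Against 1737 higher and 1801 lower calls, the replicate block gave 3153 and 3301, and only the 4 libraries 1012 and 879; leaving out 1 library gave 1040 to 1410 and 1108 to 1259 among the 4 compared, and 1749 and 1545 without untreated library 2. Effects more positive and more negative at 14 than at 4 hours (395 and 180) numbered 1395 and 1190 with the replicate block and 737 and 334 by DESeq2, and 170 to 264 and 64 to 95 with 1 library left out. For 24 against 14 hours (4 and 3) they were 61 and 71 without a filter, 156 and 138 with the replicate block and 30 and 43 by DESeq2; the more negative ones were 10 with the CPM filter and 11 by limma, and leaving out 1 library gave 1 to 4 and 0 to 3. The cause was not tested.

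Uncalled genes changed sign when 1 library was left out, and their log2 ranges were -0.228 to 0.135 for Atp5a1 (0.066 without combination library 1), -0.351 to 0.002 for Atp5b, -0.629 to 0.313 for Gm26917, -0.732 to 1.216 for Lars2 (-0.464 without RANKL library 2), -0.118 to 0.285 for Rplp0 (-0.1 without combination library 2), -0.054 to 1.283 for Runx2 and -0.176 to 0.503 for Scd2 (-0.115 without RANKL library 1). Of 504 list medians under an alternative 40 had the other sign, all of lists with a median of at most 0.307 in size.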

Other observations

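Immunoglobulin heavy chain segments next to Ighm were also higher in the combination than in RANKL. Ighm itself overlapped its untreated level, and untreated levels of these segments are not given here. Ighj3, a joining segment, had 0.586 and 0.578 CPM in the combination and 0 counts in RANKL, at least 18.7-fold higher with a floor of 3 counts over the group (adjusted p = 0.000604). Ighd4-1, a diversity segment, had 0.110 and 0.505 CPM in the combination and 0 counts in RANKL, at least 11.2-fold higher (adjusted p = 0.00373). Both were picked after their values were seen, and Ms4a1, a B cell marker, was at 0 in all 4 libraries.

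Regulators of cell death moved in both directions. Of 20 genes of the BCL2 family and death receptors 5 were higher and 2 lower (median 0.09), with 4 lower under the block and 1 in each fit without a library. Bmf, a BH3-only activator of apoptosis, had 7.29 and 9.60 CPM in the combination and 1.74 and 2.96 CPM in RANKL (log2 1.85, SE 0.34, adjusted p = 0.00133). Pmaip1, which encodes NOXA, had 85.2 and 79.5 CPM in the combination and 42.6 and 34.8 CPM in RANKL (log2 1.09, SE 0.25, adjusted p = 0.0054), and its call was lost without RANKL library 2 (adjusted p = 0.0507). Bcl2, which blocks apoptosis, was higher too (0.76, adjusted p = 0.00188), and the pore-forming Bak1 was lower (-0.63, adjusted p = 0.000583).

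Dual specificity phosphatases, which switch off MAP kinases, did not move together. Dusp6 had 8.53 and 10.6 CPM in the combination and 1.51 and 1.40 CPM in RANKL (log2 2.72, SE 0.32, adjusted p = 3.52e-05). Dusp5 had 3.003 and 2.479 CPM in the combination and 12.3 and 13.2 CPM in RANKL (log2 -2.23, SE 0.33, adjusted p = 0.000289). The combination libraries lay above RANKL for Dusp6 and below it for Dusp5.

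Integrins and podosome genes, which attach osteoclasts to bone, had 8 higher and 7 lower of 27 (median 0.01), with 5 higher without RANKL library 1. Src, the kinase of the osteoclast's ruffled border, had 2.56 and 1.25 CPM in the combination and 27.7 and 17.8 CPM in RANKL (log2 -3.61, SE 0.52, adjusted p = 0.000214). Itgb5 had 72.5 and 102 CPM in the combination and 20.8 and 32.4 CPM in RANKL (log2 1.72, SE 0.28, adjusted p = 0.000565), while Itga5 had 149 and 132 CPM in the combination and 323 and 361 CPM in RANKL (log2 -1.28, SE 0.14, adjusted p = 1.66e-05). The list of NRF2 and glutathione genes held 4 higher and 3 lower of 17 (median 0.07). Among its glutathione transferases Gstt1 and Gstt4 were lower (log2 -3.25 and -5.56), while Gstm1 (-0.002) and Gstp1 (0.44) were not called. As Gstt1 and Gstt4 are neighbouring paralogs, their counts may be shared.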
